A study of Homo sapiens with 9 samples.

Results

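The insulin and IGF system genes described here are 10 genes, picked by symbol from the 59452 rows of the gene table. They are the binding proteins *IGFBP2*, *IGFBP3*, *IGFBP4*, *IGFBP5* and *IGFBP6*, the receptors *IGF1R*, *IGF2R* and *INSR*, and the docking proteins *IRS1* and *IRS2*. RNA was sequenced from MDA-MB-453, a single established human breast cancer line, after 48 hours of culture in 3 conditions with 3 libraries each. Its label gives the genotype as wild-type, and mutations in the line, including in genes of this pathway, were not examined here. Cells in the first condition were attached to the plate and received vehicle (DMSO). In the other conditions the cells were kept in forced suspension on poly-HEMA, a coating that prevents attachment, and received either vehicle or 10 µM AT0174, an inhibitor of the tryptophan-degrading enzymes TDO2 and IDO1. All 9 libraries came from medium with 10% fetal bovine serum, and per the study's methods the replicates were biological, and its experiments in general were repeated at separate times. RNA came from whole cultures, so fewer cells that express a gene and less of its RNA per cell cannot be told apart.

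Insulin and the insulin-like growth factors IGF1 and IGF2 bind receptor tyrosine kinases, the insulin receptor (INSR) and the type 1 IGF receptor (IGF1R). These receptors phosphorylate the docking proteins IRS1 and IRS2, which recruit phosphoinositide 3-kinase, upstream of AKT and mTORC1. The adaptors GRB2 and SHC1 link the receptors and docking proteins to RAS and the MAP kinase branch. IGF2R, also the mannose 6-phosphate receptor, has no kinase activity and carries IGF2 and lysosomal enzymes inward. The secreted IGFBP proteins hold IGFs away from the receptors or release them, and some act on cells without IGF. In breast cancer this system is known for its part in growth and survival, and integrins that hold cells to matrix are known to act together with its receptors.

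Libraries held 36649997 to 48019126 estimated counts, with a median of 38658156 in attached cells, 42970982 in suspended cells with vehicle and 44064734 with AT0174. A count of 0 allows up to 3 counts in a library, or 0.0625 to 0.0819 CPM (counts scaled to the library total), a limit that covers counting error only. All 8 luminal breast epithelial markers used (such as *GATA3*, *FOXA1* and *KRT8*) were at 1 TPM (a level per transcript length, scaled to a fixed total) or more in each condition, and their summed level was 5242 to 5482 TPM in attached cells, 6289 to 6361 TPM in suspended cells with vehicle and 5976 to 6482 TPM with AT0174. That sum moved with suspension, and its part in the results below was not tested. TPM were not rescaled between conditions as the CPM below were, and how far this moved the sum was not tested. The label calls the line triple-negative. *ESR1* and *PGR* stayed at or under 0.141 and 0.306 TPM, but *ERBB2* was at 398 to 436 TPM, so its transcript goes against that label, and protein was not measured here. None of 4 endothelial and none of 4 leukocyte markers reached 1 TPM. Of 5 fibroblast markers only *COL1A1* did, while *DCN* and *LUM* were listed at 0 in every library.

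The 10 genes lie at chr2:216632828-216664436 (*IGFBP2*), chr7:45912245-45921874 (*IGFBP3*), chr17:40443450-40457725 (*IGFBP4*), chr2:216672105-216695549 (*IGFBP5*), chr12:53097436-53102345 (*IGFBP6*), chr15:98648539-98964530 (*IGF1R*), chr6:159969082-160113507 (*IGF2R*), chr19:7112255-7294414 (*INSR*), chr2:226731312-226799820 (*IRS1*) and chr13:109752695-109786583 (*IRS2*) of GRCh38, and each is annotated as protein-coding. *IGFBP2* and *IGFBP5* are neighbours on opposite strands, with 7668 bases between their ends. The promoters of the 4 binding protein genes that passed the filter on low counts are shown because these genes moved in opposite directions in suspension. Each sequence is the 250 bases before the RefSeq start site (GRCh38.p14), and capitals mark GCGTG, or CACGC where it lies on the other strand, the core letters of the response element of the aryl hydrocarbon receptor (AHR). Kynurenine, the product of the pathway that AT0174 blocks, is a ligand of that receptor.
IGFBP3 promoter, chr7:45921273-45921522, minus strand: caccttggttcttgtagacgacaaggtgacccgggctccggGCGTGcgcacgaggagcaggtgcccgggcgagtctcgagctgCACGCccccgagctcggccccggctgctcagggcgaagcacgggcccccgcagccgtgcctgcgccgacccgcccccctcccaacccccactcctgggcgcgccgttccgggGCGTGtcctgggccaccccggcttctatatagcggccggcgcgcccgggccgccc
IGFBP4 promoter, chr17:40443200-40443449, plus strand: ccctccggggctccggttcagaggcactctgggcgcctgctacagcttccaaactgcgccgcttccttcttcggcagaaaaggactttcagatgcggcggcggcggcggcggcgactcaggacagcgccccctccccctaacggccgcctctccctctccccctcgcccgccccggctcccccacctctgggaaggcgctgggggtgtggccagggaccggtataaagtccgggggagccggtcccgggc
IGFBP2 promoter, chr2:216633170-216633419, plus strand: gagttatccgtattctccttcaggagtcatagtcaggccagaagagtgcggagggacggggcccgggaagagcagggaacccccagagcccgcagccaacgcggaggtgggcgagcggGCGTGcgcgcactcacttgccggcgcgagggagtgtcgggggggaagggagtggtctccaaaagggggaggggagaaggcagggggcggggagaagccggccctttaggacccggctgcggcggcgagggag
IGFBP5 promoter, chr2:216695550-216695799, minus strand: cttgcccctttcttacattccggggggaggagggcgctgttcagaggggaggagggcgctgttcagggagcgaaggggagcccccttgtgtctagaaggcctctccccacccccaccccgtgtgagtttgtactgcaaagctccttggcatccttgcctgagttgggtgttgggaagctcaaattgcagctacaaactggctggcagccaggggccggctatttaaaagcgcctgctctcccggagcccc

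Of all 35116 RefSeq promoter windows of this length, 32.2% hold the AHR core on either strand. The *IGFBP3* window holds 3 matches, which begin 209, 167 and 55 bases before the start site. A single match lies 132 bases before the main start site of *IGFBP2*, and the windows of *IGFBP4* and *IGFBP5* hold none. Among the other genes, *IGF1R* has 4 matches and *IRS1* has 1. These windows are rich in G and C, at 76.0% for *IGFBP3*, 71.6% for *IGFBP4*, 69.2% for *IGFBP2* and 61.2% for *IGFBP5*, against a median of 58.0% over all windows. The FOXO letters GTAAACA, held by 2.98% of all windows on either strand, were found for *IGFBP6* (186 bases before its start) and in no window of the other 9 genes. In all, 6 motifs were searched. The HIF core ACGTG (18.5% of all windows) had 6 matches over both strands for *IGF2R* and 1 for *IGF1R*. Those of *IGF2R* overlap in pairs that begin 132 and 131, 74 and 73, and 28 and 27 bases before the start site. Each pair is a single stretch CACGTG, which reads the same on both strands and was counted on each. The NRF2 element (10.9%) had 1 for *IRS2*, and AP-1 letters (6.57%) had none. A GC box (42.6%) was found for every gene but *IGFBP5*. Such matches are letters in a window and are not evidence of binding.

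Per transcript length, binding protein transcripts led the group. In attached cells *IGFBP3* stood at 231 ± 39.0 TPM (SD, n = 3), *IGFBP5* at 170 ± 7.24 TPM and *IGFBP2* at 157 ± 7.27 TPM, and the library ranges of *IGFBP5* and *IGFBP2* overlapped. *IGF2R* followed at 39.3 ± 1.02 TPM. Next came *IRS1* at 12.5 ± 0.612 TPM and *IGFBP4* at 11.5 ± 0.587 TPM, with overlapping ranges, then *IGF1R* at 9.49 ± 1.09 TPM and *INSR* at 2.14 ± 0.341 TPM. *IGFBP6* (0.242 TPM) and *IRS2* (0.0107 TPM) were close to 0. In suspension with vehicle the order was the same except that *IGFBP4* (15.4 TPM) and *IRS1* (15.3 TPM) changed places within overlapping ranges, while *IGFBP5* (145 TPM) and *IGFBP2* (133 TPM) no longer overlapped. With AT0174 the ranges of *IGFBP5* (132 TPM) and *IGFBP2* (126 TPM) overlapped again, as did those of *IRS1* and *IGFBP4*.

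**Figure D1:**
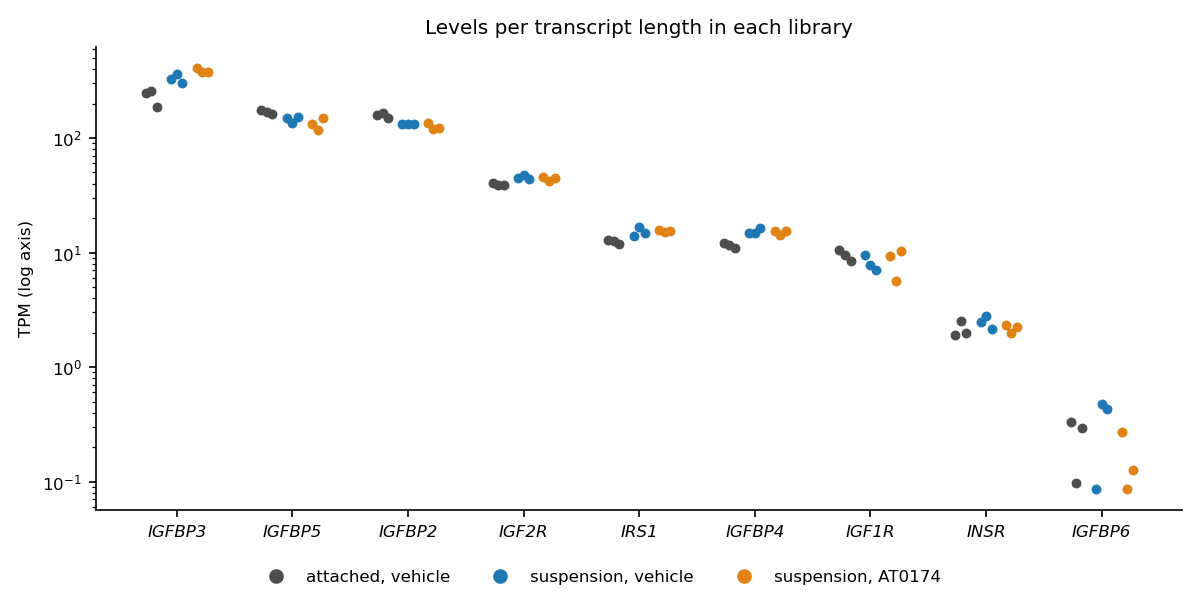
Level of each gene in each library in TPM on a log axis, with genes in the order of their mean in attached cells and a point per library, 3 in each condition. *IGFBP3* sits highest in every condition, *INSR* lies near 2 TPM and *IGFBP6* below 1 TPM. *IRS2* is not drawn because 3 of its libraries are listed at 0.

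The first comparison asked which of these genes differ when cells lose attachment. Suspension with vehicle was compared with attached culture with vehicle by edgeR's quasi-likelihood test on the estimated counts, and a gene was called changed at a Benjamini–Hochberg adjusted p under 0.05 over all 15528 tested genes. Of the 10 genes, 8 passed the filter on low counts, and 7 of these 8 were called. *IGFBP3*, *IGFBP4*, *IGF2R*, *INSR* and *IRS1* were higher, *IGFBP2* and *IGFBP5* were lower, and *IGF1R* was not called. Over all tested genes 21.2% were called, 10.4% higher and 10.8% lower. The median log2 fold change was 0.14 over these 8 genes, and it was -0.00 over all tested genes. The libraries of the conditions did not overlap for the same 7 genes, as for 38.1% of all tested genes (19.4% with the suspended libraries higher). None of the 8 changed by as much as 1.5-fold.

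**Figure D2:**
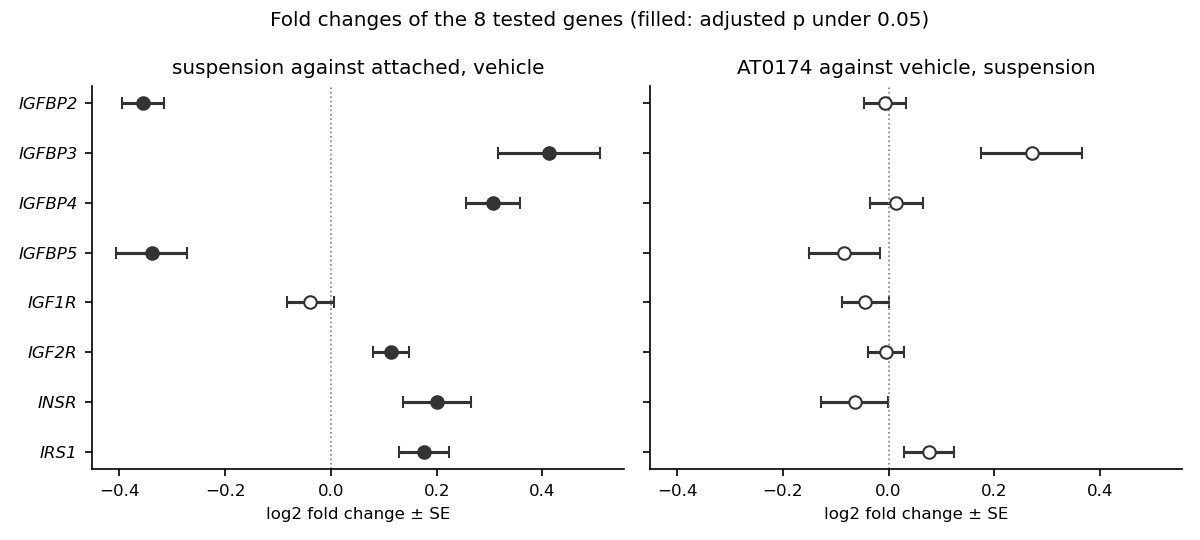
Log2 fold change with its standard error for the 8 tested genes, suspension against attached culture on the left and AT0174 against vehicle in suspension on the right, with filled points for an adjusted p under 0.05. On the left, 7 points are filled and run from -0.36 (*IGFBP2*) to 0.41 (*IGFBP3*), and on the right none is filled and *IGFBP3* at 0.27 lies farthest from 0.

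The binding proteins moved in both directions. *IGFBP3*, the main carrier of IGFs in serum, was at 387, 411 and 298 CPM in the 3 attached libraries and at 493, 529 and 438 CPM in the 3 suspended libraries with vehicle. Every suspended library was above every attached one, although the third attached library lay well below the others of its group. The log2 fold change was 0.41 (SE 0.097, edgeR adjusted p = 0.0107), or 1.33-fold, with a 95% interval of 1.15- to 1.54-fold. Without the second suspended library the call was lost (log2 fold change 0.35, edgeR adjusted p = 0.0506), and without the third attached library the change was 0.29 and still called.

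*IGFBP4*, which binds IGFs and is cut by the protease PAPPA, stood at 17.7, 17.2 and 16.5 CPM in attached cells. Its suspended libraries with vehicle were at 20.8, 20.4 and 22.3 CPM, all above the attached ones. This gave a log2 fold change of 0.31 (SE 0.051, edgeR adjusted p = 0.00192), and the call held in each of 14 alternatives. A single annotated transcript accounts for all of its signal. *PAPPA* itself had no count in any library.

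*IGFBP2*, a binding protein with a high affinity for IGF2, was at 114, 122 and 111 CPM in attached cells and at 89.6, 90.4 and 90.7 CPM in suspended cells with vehicle. Suspended libraries lay below all attached ones and within about 1 CPM of each other. The fall was 0.781-fold (log2 fold change -0.36, SE 0.039, edgeR adjusted p = 0.000128), the smallest p of the 8 genes, and it was called in all 14 alternatives. Its coding transcripts of 1414 and 846 bases held 57.5% and 41.6% of its TPM over all libraries, and their shares overlapped between conditions.

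*IGFBP5*, which binds IGFs and also matrix and hydroxyapatite, was at 766, 742 and 732 CPM in attached cells. In suspended cells with vehicle it was at 615, 544 and 612 CPM, again with no overlap between the groups. The log2 fold change was -0.34 (SE 0.067, edgeR adjusted p = 0.00471), or 0.791-fold, and it was called in all 14 alternatives. Both neighbours on chromosome 2 were therefore lower in suspension, and by similar amounts. *IGFBP6*, a binding protein that prefers IGF2, had 5, 2 and 7 estimated counts in attached libraries and 1, 11 and 10 in suspended ones with vehicle. These groups overlapped and the gene was not tested.

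**Figure D3:**
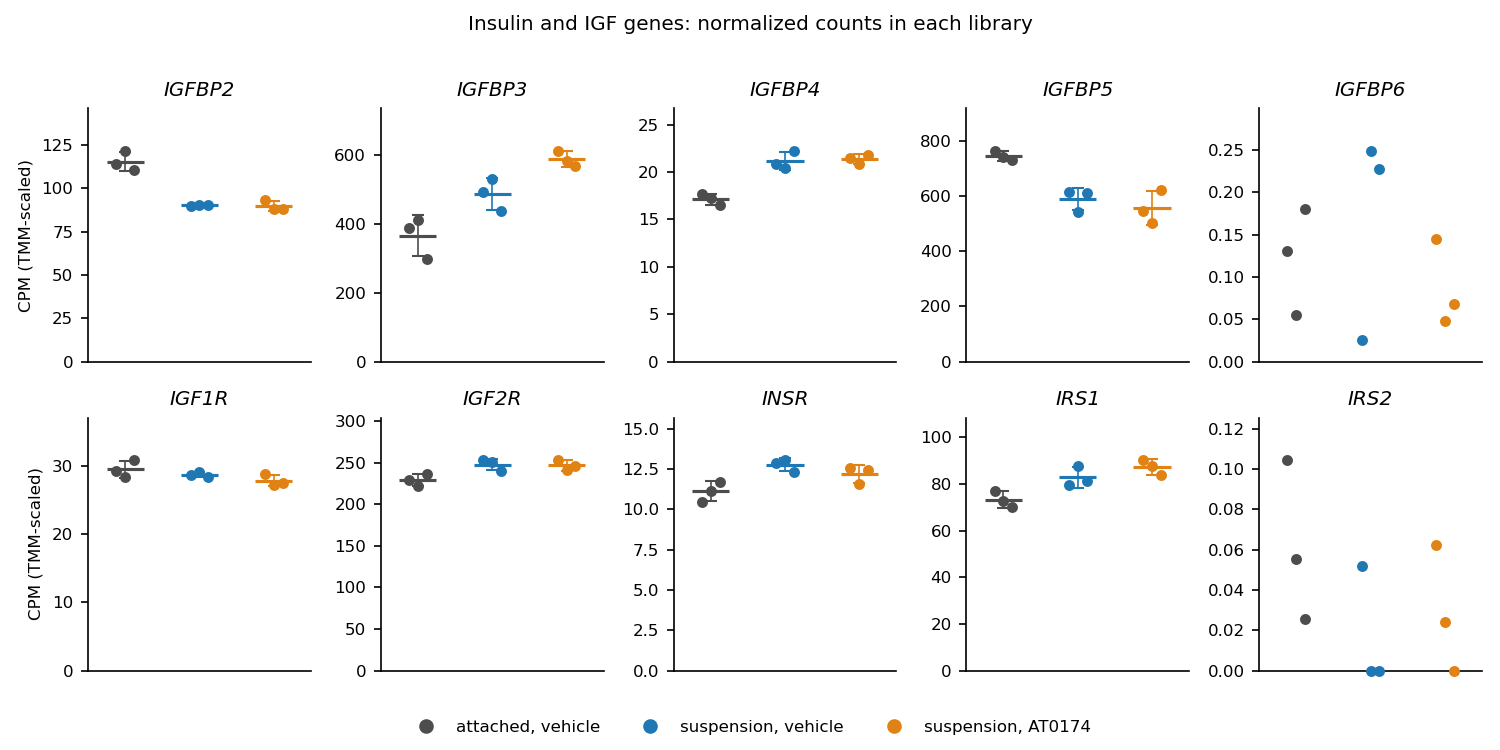
CPM of each of the 10 genes in each library, by condition, with a separate axis from 0 for each gene, points for libraries and, for the 8 tested genes, a line at the mean and bars of 1 SD (n = 3). Suspended and attached libraries separate for *IGFBP2*, *IGFBP3*, *IGFBP4*, *IGFBP5*, *IGF2R*, *INSR* and *IRS1* and overlap for *IGF1R*.

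The make-up of the binding protein transcripts shifted with these changes. This comparison was chosen after the values were seen, is not independent of the tests above and was not tested itself. *IGFBP3* made up 40.4 ± 3.33% (SD, n = 3) of the summed TPM of *IGFBP2* to *IGFBP6* in attached cells, 52.9 ± 3.06% in suspension with vehicle and 58.6 ± 1.80% with AT0174. The share of *IGFBP5* was 29.9%, 23.3% and 20.01% in the same order, and that of *IGFBP2* was 27.7%, 21.3% and 19.1%. *IGFBP4* and *IGFBP6* together added under 3% in every condition. The summed level itself was 570 ± 52.0, 624 ± 21.1 and 661 ± 31.4 TPM, and its range in suspension with vehicle overlapped that of each other condition. TPM were not rescaled between conditions as CPM were, so the sums alone do not show a change in total binding protein transcript.

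**Figure D4:**
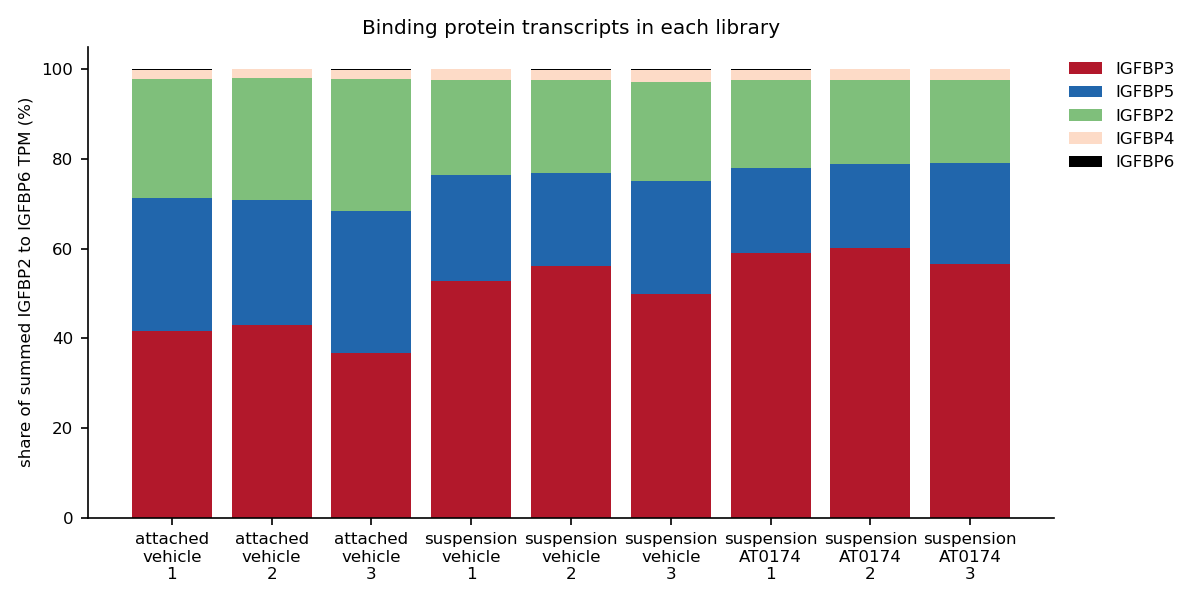
Share in percent of the summed *IGFBP2* to *IGFBP6* TPM taken by each binding protein, as a stacked bar for each of the 9 libraries. *IGFBP3* (the lowest block) runs from 36.6% to 43.0% in attached libraries, from 49.9% to 56.0% in suspension with vehicle and from 56.7% to 60.2% with AT0174, while *IGFBP5* and *IGFBP2* take smaller shares in suspension.

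Among the receptors, *INSR* and *IGF2R* were higher in suspension and *IGF1R* was not called. *IGF1R* was at 29.2, 28.4 and 30.9 CPM in attached cells and at 28.6, 29.1 and 28.4 CPM in suspension with vehicle. The groups overlapped, with a log2 fold change of -0.04 (SE 0.045, edgeR adjusted p = 0.583) and a 95% interval of 0.910- to 1.04-fold. *IGF2R* was at 229, 222 and 236 CPM attached and 253, 251 and 240.2 CPM suspended with vehicle. The suspended libraries were all higher, by a log2 fold change of 0.11 (SE 0.034, edgeR adjusted p = 0.0345). That call was lost without the first or second attached library and without the first or second suspended one (edgeR adjusted p up to 0.122). It was also lost with counts rebuilt from TPM (edgeR adjusted p = 0.173) and with only the 6 libraries of the contrast (edgeR adjusted p = 0.0592).

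*INSR*, the least abundant of the tested genes per length, had 10.5, 11.1 and 11.7 CPM in attached cells and 12.9, 13.1 and 12.3 CPM in suspension with vehicle. Here too the suspended libraries were all above the attached ones. The log2 fold change was 0.20 (SE 0.064, edgeR adjusted p = 0.0429), close to the threshold, and only 3 of 14 alternatives kept the call. Leaving out any 1 of the 6 libraries ended it except for the third attached library, with an edgeR adjusted p of up to 0.138. With counts rebuilt from TPM the log2 fold change was 0.10 and not called (edgeR adjusted p = 0.762).

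INSR has isoforms with and without exon 11, a small exon of 36 bases in the coding region whose skipping gives the form with the higher affinity for IGF2. The exon is at chr19:7150497-7150532 on the minus strand of GRCh38, and it is shown in capitals with 20 intronic bases on each side to identify the segment that tells the isoforms apart.
INSR exon 11: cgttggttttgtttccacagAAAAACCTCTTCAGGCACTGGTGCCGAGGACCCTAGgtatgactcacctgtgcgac

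The transcript with this exon took 65.4%, 66.1% and 58.8% of the summed TPM of the full-length coding pair in the 3 attached libraries. In suspension with vehicle its share was 48.6%, 68.4% and 64.9%, so 1 suspended library lay below all attached ones and another above them. Means were 63.4 ± 4.01% and 60.7 ± 10.5% (SD, n = 3), a difference of -2.79 percentage points (two-sided exact permutation p = 0.8, with 0.1 the smallest p that 3 against 3 libraries allow). The sign of this difference was not stable, since it became 1.42 points with all *INSR* transcripts in the denominator and 3.20 points without the first suspended library. The pair also differs in the annotated first exon, of 623 and 140 bases, so the split does not rest on exon 11 alone. Each share rested on 228 to 410 estimated reads assigned to the whole transcript with the exon and 122 to 242 to the one without it. These are not reads over exon 11 or its junctions, which were not counted.

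Of the docking proteins, *IRS1* was measured and *IRS2* was close to 0. *IRS1*, which docks to both receptors, was at 77.0, 72.9 and 70.1 CPM in attached cells and at 79.4, 87.8 and 81.2 CPM in suspension with vehicle. All suspended libraries were higher, with a log2 fold change of 0.18 (SE 0.048, edgeR adjusted p = 0.0221). The call was lost without the second or the third attached library or the second suspended library (edgeR adjusted p up to 0.0914). Counts rebuilt from TPM ended it as well (edgeR adjusted p = 0.1). *IRS2* had 4, 2 and 1 estimated counts in attached libraries, 2, 0 and 0 in suspension with vehicle and 3, 1 and 0 with AT0174, and it was not tested. *IRS4*, a docking protein named here after its values were seen, was at 24.7 ± 1.93, 23.1 ± 1.80 and 23.7 ± 0.314 CPM (SD, n = 3) in attached cells, in suspension with vehicle and with AT0174, with groups that overlapped.

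The ligands were near the limit of detection. *INS* had no count in any library, which allows up to 0.0819 CPM in the shallowest one. *IGF1* had 0 or 1 estimated counts and *IGF2* had 0 to 4, and none of these genes was tested. Ligand made by these cells was thus not detectable at this depth beyond these counts, and IGFs in the serum are not measured by sequencing.

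Other genes of the pathway came from lists of 85 genes outside the 10, of which 70 were tested. In suspension 18 of the 70 were called, 11 higher and 7 lower, or 25.7% against 21.2% of all tested genes. Their median log2 fold change was 0.00, as it was over all tested genes. Of the 18, only *BCL6* changed by more than 1.5-fold.

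**Figure D5:**
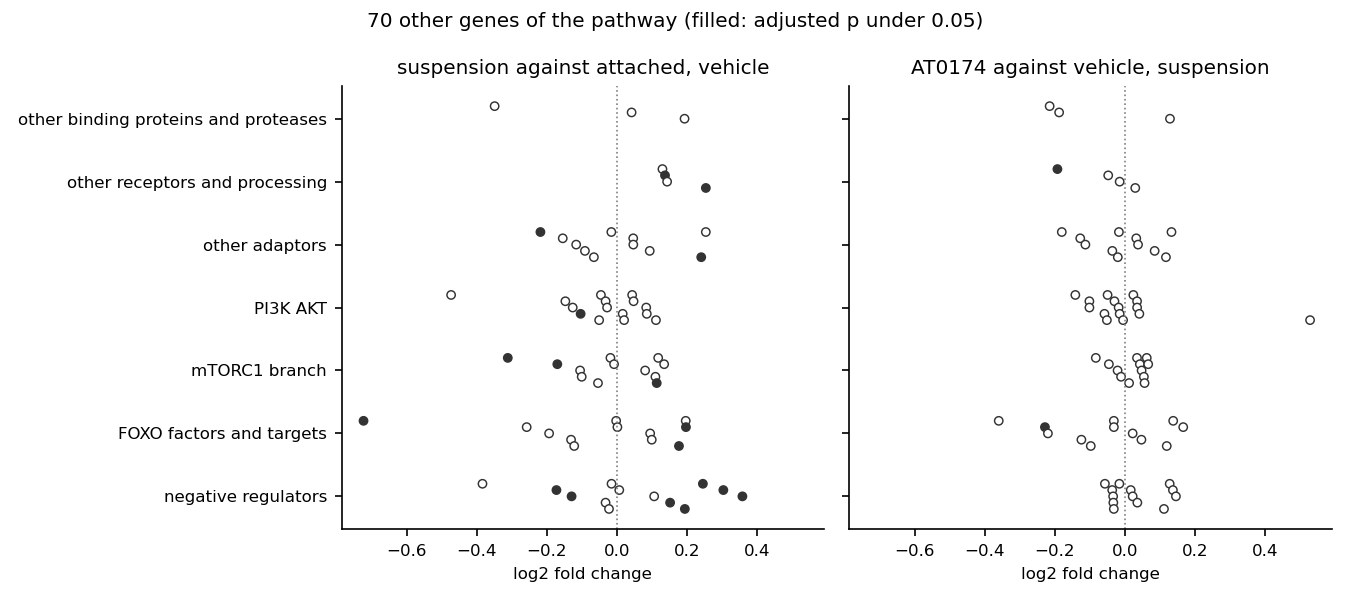
Log2 fold change of the 70 tested pathway genes by list, a point for each gene, filled where the adjusted p was under 0.05, with suspension against attached culture on the left and AT0174 against vehicle on the right. On the left 18 points are filled, from -0.72 (*BCL6*) to 0.36 (*SOCS2*), and on the right 2 are filled, both below 0.

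The list of negative regulators held 7 called genes among 13 tested, 5 higher and 2 lower, or 54% against 21.2% of all tested genes. The median log2 fold change of this list was 0.01. *SOCS2*, a cytokine signalling suppressor that also binds IGF1R, rose from 17.7 ± 0.924 to 22.7 ± 1.30 CPM (SD, n = 3; log2 fold change 0.36, edgeR adjusted p = 0.00208). *TRIB3*, a pseudokinase that binds AKT, rose by 0.19 (edgeR adjusted p = 0.00304) and *SOCS6* by 0.24 (edgeR adjusted p = 0.00513). *MDM2*, a ubiquitin ligase with IGF1R among its targets, rose by 0.15 (edgeR adjusted p = 0.0062). *TRIB1*, named outside the rule to complete the count, was 0.30 higher. *CUL7* and *SOCS7* fell by 0.17 and 0.13, and both calls were lost in more than 1 alternative.

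Of 4 tested genes for other receptors and processing, 2 were called (50% against 21.2% of all tested genes) and both were higher. *FURIN*, a protease that cuts the precursors of INSR and IGF1R, rose from 71.1 ± 1.52 to 84.8 ± 1.57 CPM (SD, n = 3; log2 fold change 0.25, edgeR adjusted p = 0.00136) and was called in all 14 alternatives. *IDE*, which degrades insulin, rose by 0.14 (edgeR adjusted p = 0.0168). In the adaptor list, 2 of 11 were called (18.2%, near the 21.2% of all tested genes). *GRB2*, the adaptor that leads to RAS, rose by 0.24 (SE 0.027, edgeR adjusted p = 0.000159), and *SH2B1*, an adaptor that enhances insulin receptor signalling, fell by 0.22 (edgeR adjusted p = 0.00522).

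Downstream, 1 of 15 tested genes of PI3K and AKT was called, or 6.67% against 21.2% of all tested genes. This gene was *PIK3R2*, a regulatory subunit, which fell by 0.10 (edgeR adjusted p = 0.0434). In the mTORC1 branch 3 of 12 were called (25%, near the 21.2% of all tested genes). *TSC2* and *TSC1*, which together restrain the GTPase RHEB, fell by 0.31 (edgeR adjusted p = 0.00805) and 0.17 (edgeR adjusted p = 0.0257), and *RHEB* itself rose by 0.11 (edgeR adjusted p = 0.0333). With counts rebuilt from TPM the *TSC1* change was 0.03 higher instead of lower (edgeR adjusted p = 0.890).

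FOXO factors are held out of the nucleus by AKT. Of 12 tested genes listed here as these factors or their targets, 3 were called (25%, near the 21.2% of all tested genes). Whether FOXO acts on the listed genes in these cells was not tested. *FOXO3* rose by 0.18 (edgeR adjusted p = 0.00816) and *PCK2*, a mitochondrial gluconeogenic enzyme, by 0.20 (edgeR adjusted p = 0.0157). *BCL6*, a transcriptional repressor, fell from 11.3 ± 1.33 to 6.84 ± 1.77 CPM (SD, n = 3; log2 fold change -0.72, edgeR adjusted p = 0.00546). The list of other binding proteins, proteases and related genes held 10 genes. Of these only *STC1*, *STC2* and *HTRA1* were tested, and none of the 3 was called. When each of the 6 libraries was left out in turn, *IDE* kept its call in 5 fits, *PCK2* in 4, *TSC1* and *CUL7* in 2, *SOCS7* in 1, and *PIK3R2* and *RHEB* in 0, with edgeR adjusted p of up to 0.174, while the other called pathway genes kept theirs in all 6. Counts rebuilt from TPM gave log2 fold changes of 0.07 for *MDM2*, 0.06 for *IDE* and -0.02 for *SOCS7*. Each was more than 1.5 times smaller than above and not called (edgeR adjusted p from 0.573 to 0.897). Changes were larger for *FOXO3* (0.30) and *SH2B1* (-0.34), both still called. *TSC2*, *TRIB1* and *CUL7* each lost their call in 1 of the 8 alternatives that did not omit single libraries in turn. There the changes were larger, at -0.43, 0.38 and -0.26. The largest edgeR, DESeq2 or limma adjusted p over these 8 was 0.085, 0.054 and 0.063. Some exons are shared with other annotated genes, and whether counting used strand is not given in the sources used here. Reads of *TSC2* and *PKD1* (784 shared bases), of *SOCS2* and its antisense gene (277), of *CUL7* and *KLC4* (486), of *PIK3R2* and a protein-coding gene on its own strand (3942), and of *MDM2* and a processed pseudogene within it (439) may therefore be split wrongly.

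The second comparison asked whether AT0174 altered these genes in suspended cells. It shares the 3 suspended vehicle libraries with the first, so the comparisons are not independent. None of the 8 tested genes was called by edgeR's quasi-likelihood test, against 0.779% of all tested genes (0.522% higher and 0.258% lower), and 1 of the 8 had an unadjusted p under 0.05. DESeq2 and limma-voom also called none, each with 1 gene at an unadjusted p under 0.05. The median log2 fold change over the 8 genes was -0.01, and that of all tested genes was 0.00.

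*IGFBP3* was the gene with that unadjusted p. With AT0174 its libraries were at 612, 582 and 567 CPM, all above the 438 to 529 CPM with vehicle. The log2 fold change was 0.27 (SE 0.096, unadjusted p = 0.0150 and adjusted p = 0.363 by edgeR's quasi-likelihood test), with a 95% interval of 1.04- to 1.39-fold that is not adjusted for the number of genes. Groups that do not overlap were seen for 15.4% of all tested genes in this comparison, 7.78% with the AT0174 libraries higher. Over the alternatives the edgeR, DESeq2 or limma adjusted p ran from 1.51e-10 to 0.724, and only the fit without a filter on low counts called it. In suspension that fit gave *IGFBP3* and *IGFBP5* nearly the same SE (0.0382 and 0.0381, against 0.0966 and 0.0671 with the filter). Its small p may therefore not reflect the spread of this gene between libraries. Across the 3 conditions, which do not overlap, *IGFBP3* was at 366 ± 59.6, 486 ± 46.0 and 587 ± 23.3 CPM (SD, n = 3).

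The other binding proteins overlapped between AT0174 and vehicle. *IGFBP2* was at 93.2, 88.3 and 88.0 CPM with AT0174 (log2 fold change -0.01, 95% interval 0.938- to 1.06-fold). *IGFBP4* was at 21.5, 20.8 and 21.8 CPM (0.01, 0.938- to 1.09-fold). For both genes the AT0174 libraries lay on the same side of the attached libraries as the vehicle ones. *IGFBP5*, at 547, 502 and 623 CPM, overlapped with vehicle as well (log2 fold change -0.08, 95% interval 0.853- to 1.04-fold).

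Receptors and *IRS1* gave a similar picture. With AT0174 *IGF1R* was at 28.7, 27.3 and 27.5 CPM and *IGF2R* at 254, 241 and 247 CPM, with 95% intervals of 0.907- to 1.04-fold and 0.947- to 1.05-fold. *INSR* was at 12.6, 11.6 and 12.4 CPM (0.870- to 1.05-fold). *IRS1* was at 90.5, 87.8 and 83.9 CPM (0.982- to 1.13-fold). All 4 overlapped with vehicle, and the edgeR adjusted p was 0.698 for *IRS1* and larger for the receptors. The *IRS1* interval includes the 1.13-fold difference seen with suspension, whereas that of *IGF2R* ends below its 1.08-fold difference. The *INSR* exon 11 share was 66.9%, 53.1% and 54.2% with AT0174, a mean of 58.0 ± 7.66% (SD, n = 3) and a difference of -2.61 percentage points from vehicle (two-sided exact permutation p = 0.9). It became 1.71 points with all *INSR* transcripts in the denominator and 1.28 points without the second vehicle library.

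Of the 70 other pathway genes 2 were called with AT0174, 2.86% against 0.779% of all tested genes, and both were lower. *TXNIP*, a thioredoxin-binding protein that restrains glucose uptake, went from 191 ± 12.1 to 163 ± 1.40 CPM (SD, n = 3; log2 fold change -0.23, edgeR adjusted p = 0.0235). *FURIN* went from 84.8 ± 1.57 to 74.2 ± 3.63 CPM (log2 fold change -0.19, edgeR adjusted p = 0.0445). That mean lay between its means in the other 2 conditions, but its AT0174 libraries (70.15 to 77.13 CPM) overlapped the attached ones (69.83 to 72.8 CPM). For both genes every AT0174 library lay below every vehicle library. Each call was kept in 1 of the 6 fits that left out a library, *TXNIP* without the first vehicle library and *FURIN* without the third AT0174 library, with edgeR adjusted p of up to 0.0954 and 0.171 in the others.

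The genes most like *IGFBP2*, the gene with the smallest p in suspension, were sought outside the lists by the correlation of log2 CPM over the 9 libraries, among 12526 genes. These were *FLII* (Pearson r = 0.985), *ANXA6* (0.981) and *LAMB1* (0.980), a laminin chain. All 3 were lower in suspension, *LAMB1* most clearly, from 24.0 ± 1.74 to 7.04 ± 0.674 CPM with vehicle and 7.61 ± 0.579 CPM with AT0174 (SD, n = 3). The points share their libraries and conditions, so these values describe likeness of pattern only.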

How the data were processed

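RNA of 9 MDA-MB-453 cultures was sequenced (the labels and the study's methods name different library kits, and the values do not tell which was used). Per the labels and methods, the authors trimmed reads with Cutadapt 3.4 in Trim Galore 0.6.7, aligned with STAR 2.7.9a to GRCh38 and quantified with Salmon 1.10.1. They deposited estimated counts for 59452 genes, without normalization, and for 236920 transcripts. The deposited TPM values of transcripts, scaled by the authors' software for effective length and depth, were summed by gene to compare levels between genes. Salmon divides reads among transcripts that share sequence, so shares of transcripts are less certain than gene totals.

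Estimated counts were rounded, filtered with filterByExpr and scaled by TMM, and all 9 libraries were fitted together by quasi-likelihood in edgeR 4.0.16 (under R 4.3.3), each library coded by its condition and nothing else. Standard errors are the absolute log2 fold change over the square root of F. CPM use TMM-scaled totals. Adjusted p-values are Benjamini–Hochberg values over 15528 genes, and the intervals use the fit's degrees of freedom. The procedure was tested on simulated data. Results were recomputed with limma-voom (limma 3.58.1), the DESeq2 1.42.0 Wald test, DESeq2 scaling within edgeR, 2 other count filters, TPM-derived counts, the 6 libraries of a contrast alone, omission of each library, the replicate number as a block, and a threshold of 0.01.

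The 10 genes, the pathway lists and the markers were chosen with earlier results of these data known. Pathway genes named are those called with the smallest adjusted p, up to 4 in each direction per list. The ligands *IGF1*, *IGF2* and *INS*, member transcripts with at least 5% of a gene's TPM, and the 3 genes most correlated with the member of smallest p among genes with at least 50 normalized counts were also named by rule. *IRS4*, *TRIB1*, the *PAPPA* counts, *STC1*, *STC2*, *HTRA1* and the binding protein shares were added after values were seen. Positions are from GENCODE on GRCh38 and promoters from RefSeq. A luminal marker is not reported here and was left out of its list.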

Additional observations from a re-analysis of the deposited data

How the results depend on the processing

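For suspension against attached culture, 7 of 8 genes were called, 6 by DESeq2 and by limma-voom, and between 3 and 6 when 1 library was left out (3 without the second suspended vehicle library, 4 without the second attached one). The count was 4 with counts rebuilt from TPM and 3 at an adjusted p under 0.01. Calls over all tested genes changed as well, from 3297 of 15528 to 1951 of 15796 without the second suspended vehicle library. They were 2686 of 15805 without the second attached library and 1396 of 16685 with counts rebuilt from TPM. Without the third attached library they were 1935 of 15798, while 6 of the 8 genes stayed called. All 8 genes kept their direction in this comparison under every alternative, and *IGFBP2*, *IGFBP4* and *IGFBP5* were called in all 14. The pathway count of 18 was 11 with counts rebuilt from TPM and 10 at the threshold of 0.01, and *TSC1* turned to 0.0303 with counts rebuilt from TPM. For AT0174, *IGFBP3* made a count of 1 without a filter on low counts, and the pathway count of 2 became 4 with DESeq2, 5 without a filter, 1 with the 6 libraries of the contrast, 0 with counts rebuilt from TPM, 0 at the threshold of 0.01, and 0 to 1 without 1 library. Calls over all tested genes with AT0174 went from 121 to 239 with DESeq2, 499 of 29181 without a filter and 31 with counts rebuilt from TPM. They were 125 with the 6 libraries of the contrast and 63 to 86 without 1 library. The cause of these differences was not tested.

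Values near 0 in the AT0174 comparison changed sign. *IGF1R* was 0.0882 and *IGF2R* 0.0071 with counts rebuilt from TPM, and *IGF2R* was 0.0011 without a filter. With 1 library left out, *IGFBP2* ran from -0.0342 to 0.0055, *IGFBP4* from -0.0163 to 0.0497 and *IGF2R* from -0.0296 to 0.0141. The difference in *INSR* exon 11 share was 1.42 percentage points (suspension) and 1.71 (AT0174) with all *INSR* transcripts in the denominator, and it ran from -6.68 to 3.20 and from -8.60 to 1.28 without 1 library.

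Over all tested genes, deviations of the 9 same-numbered pairs of libraries correlated between -0.0652 and 0.0526. Pairs with different numbers gave -0.0863 to 0.0886. Such values cannot tell whether the cultures were set up in numbered sets. With the replicate number as a block, 6 genes were called in suspension (*INSR* was lost, edgeR adjusted p = 0.0600) and 0 with AT0174, and the pathway counts were 20 and 2. For *IGFBP3* the third library was the lowest in each condition (298, 438 and 567 CPM). In suspension the block lowered its SE from 0.097 to 0.063 (edgeR adjusted p = 0.0018), while that of *INSR* rose from 0.064 to 0.068. Depth limits *IGFBP6*, *IRS2* and the ligands most, whose counts are too few for a test.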

Other observations

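The division of *IGF1R* signal among its 17 annotated transcripts varied between libraries, while the gene's total was not called in either comparison. Transcripts annotated as retained introns took 29.7 ± 9.47% (SD, n = 3) of its TPM in attached cells, 49.2 ± 9.16% in suspension with vehicle and 47.4 ± 6.86% with AT0174. The ranges were 21.7% to 40.1% in attached cells, 40.6% to 58.8% in suspension with vehicle and 39.8% to 53.2% with AT0174, so the attached range nearly touched that with vehicle and overlapped that with AT0174. For *IGF2R* the same share was 56.0 ± 2.33%, 54.0 ± 1.72% and 53.5 ± 2.41%, and for *INSR* it went the other way, at 25.2 ± 8.44%, 15.2 ± 7.84% and 4.59 ± 7.94%, with ranges of 17.8% to 34.4%, 8.30% to 23.8% and 0% to 13.8% of which each overlapped the next. These shares were looked at after the values were seen, were not tested, and rest on how Salmon divided reads among transcripts that share sequence. With counts rebuilt from TPM, the *IGF1R* log2 fold change in suspension was -0.32 and not called.

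Docking protein transcripts were uneven in these cells. *IRS1* was at 12.5 TPM and *IRS4* at 4.56 TPM in attached cells, while *IRS2* was at 0.0107 TPM. *IRS4* was not called in either comparison (log2 fold change -0.09, SE 0.065, edgeR adjusted p = 0.354 in suspension).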
